A study of Mus musculus with 2 samples.

Results

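The genes described here are 41 genes of the cell's defence against oxidants: the transcription factor NRF2 (gene Nfe2l2) with its partners and sensor, its targets, and the enzymes of the glutathione, thioredoxin and peroxiredoxin systems. They were chosen by name, as a fixed set of symbols, from the 26127 rows of the deposited expression table, and all 41 were found there. The set was chosen with earlier results of these data known, so its shares beside those of all genes are no independent evidence. The cells were PS10, a female line of extraembryonic endoderm stem (XEN) cells of ICR strain; such lines model the primitive endoderm, the layer of the early mouse embryo that forms the yolk sac endoderm. One culture had received, by lipid transfection with Lipofectamine RNAiMax, a locked nucleic acid (LNA) against Gata6-AS, a noncoding RNA antisense to the endoderm gene Gata6, and the other a control LNA; the titles call these siRNA-Gata6AS and siRNA-Control. There was 1 library of total RNA per group, so no value below has a replicate check, no test between the conditions was possible, and every difference compares these 2 libraries. PS10 is a single cell line, and the sources used here do not give the dose or duration of the transfections.

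NRF2 is a basic leucine zipper protein that KEAP1 holds in the cytoplasm and delivers to the CUL3 ubiquitin ligase for destruction. Oxidants and electrophiles modify cysteines of KEAP1, NRF2 escapes, enters the nucleus, pairs with a small MAF protein and binds antioxidant response elements in front of genes for glutathione synthesis, conjugation and thioredoxin reduction. Glutathione is made from glutamate, cysteine and glycine by a pair of ligases, is consumed by peroxidases and transferases, and is recycled with NADPH; peroxiredoxins, recharged by thioredoxin, remove peroxides in parallel. NRF2 is regulated mainly as a protein, so the level of its own RNA is only part of its control.

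Levels are in RPKM, which scales reads by gene length in kilobases and by library depth, and differences are on the log2(RPKM + 1) scale, Gata6-AS LNA minus control LNA, which understates the change of low genes. A gene counted as measured where its 2 values averaged 1 RPKM or more. The steps between RPKM values correspond to depths of 1.04e+08 reads (control LNA) and 1.23e+08 reads (Gata6-AS LNA). Percentages of control carry exact (Clopper-Pearson) 95% intervals computed on the least read numbers compatible with both RPKM values, and these cover counting error only, not the spread between cultures. Gata6-AS itself, listed as 1010001N08Rik, stood at 10.1 RPKM with the control LNA and 5.83 RPKM with the Gata6-AS LNA, 57.8% of control (50.5% to 66.1%). Its span overlaps Gata6 on the opposite strand, which stood at 81.9 and 55.7 RPKM (control first), 68.0% of control. The sources used here do not say whether counting used strand, so Gata6 reads may be part of the Gata6-AS values. XEN identity was visible in both libraries: all 10 XEN markers were measured, with Sparc at 2104 and 1689 RPKM, Gata4 at 357 and 246 RPKM and Sox17 at 70.3 and 52.3 RPKM (control first). These markers moved with the comparison too, 8 of 10 lying below 0 with a summed level of 5117 RPKM with the control LNA and 3812 RPKM with the Gata6-AS LNA, and their part in the values below was not tested. Sox7, at 145 and 59.4 RPKM (-1.28), was the 1 marker at least 2-fold lower. Among all 10853 genes measured, 4555 lay below 0 and 0.451% were at least 2-fold lower. Dab2, at 31.0 and 43.6 RPKM (0.48), had the most positive difference of the 10. Among 7 markers each of embryonic stem cells, trophoblast and fibroblast feeders, 1 was measured (Nanog, at 4.61 and 5.07 RPKM), Sox2, Thy1 and Twist1 were at 0 in both libraries, the fibroblast markers summed to 0.0473 and 0.0627 RPKM, and the trophoblast markers to 1.14 and 1.95 RPKM. In bulk RNA, more RNA per cell and more cells expressing a gene cannot be told apart.

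Genes that make and recycle glutathione were higher in the Gata6-AS LNA library, together with the cytosolic peroxiredoxin Prdx1 and most of the cytosolic glutathione transferases, while the sensor, the small MAF gene and the heme-degrading targets were near their control levels. Of the 41 genes, 35 were measured. Their median difference was 0.22, beside 0.05 over all 10853 genes measured, and 26 of 35 (74.3%) lay above 0, where 58.0% of all genes did. At least 1.5-fold higher were 4 of 35 (11.4%), Gsr, Gss, Prdx1 and Gclm, beside 3.43% of all genes measured; none was at least 1.5-fold lower, beside 1.94% of all. None of the 35 was 2-fold higher or lower on this scale, as were 0.332% and 0.451% of all genes; as a plain ratio of RPKM, Gss and Gclm were 2.07 and 2.05 times their control levels. The next below the 1.5-fold line was Gstm1 at 0.56, and the nearest above it Gclm at 0.66. The count depends on how low values are treated: with a pseudocount of 0.1 RPKM, 7 of 35 (20.0%, beside 5.69% of all genes) were 1.5-fold higher, the added genes being Gclc, Gpx3 and Gstm1, and above a mean of 5 RPKM, 2 of 30 (6.67%, beside 3.62%). Of these, Gpx3, at 0.788 and 1.35 RPKM, was measured only through its level in the Gata6-AS LNA library. The authors' deposited table lists 7 of the 35 as higher (20.0%, beside 6.24% of all genes measured) and none as lower (5.69% of all).

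**Figure D1:**
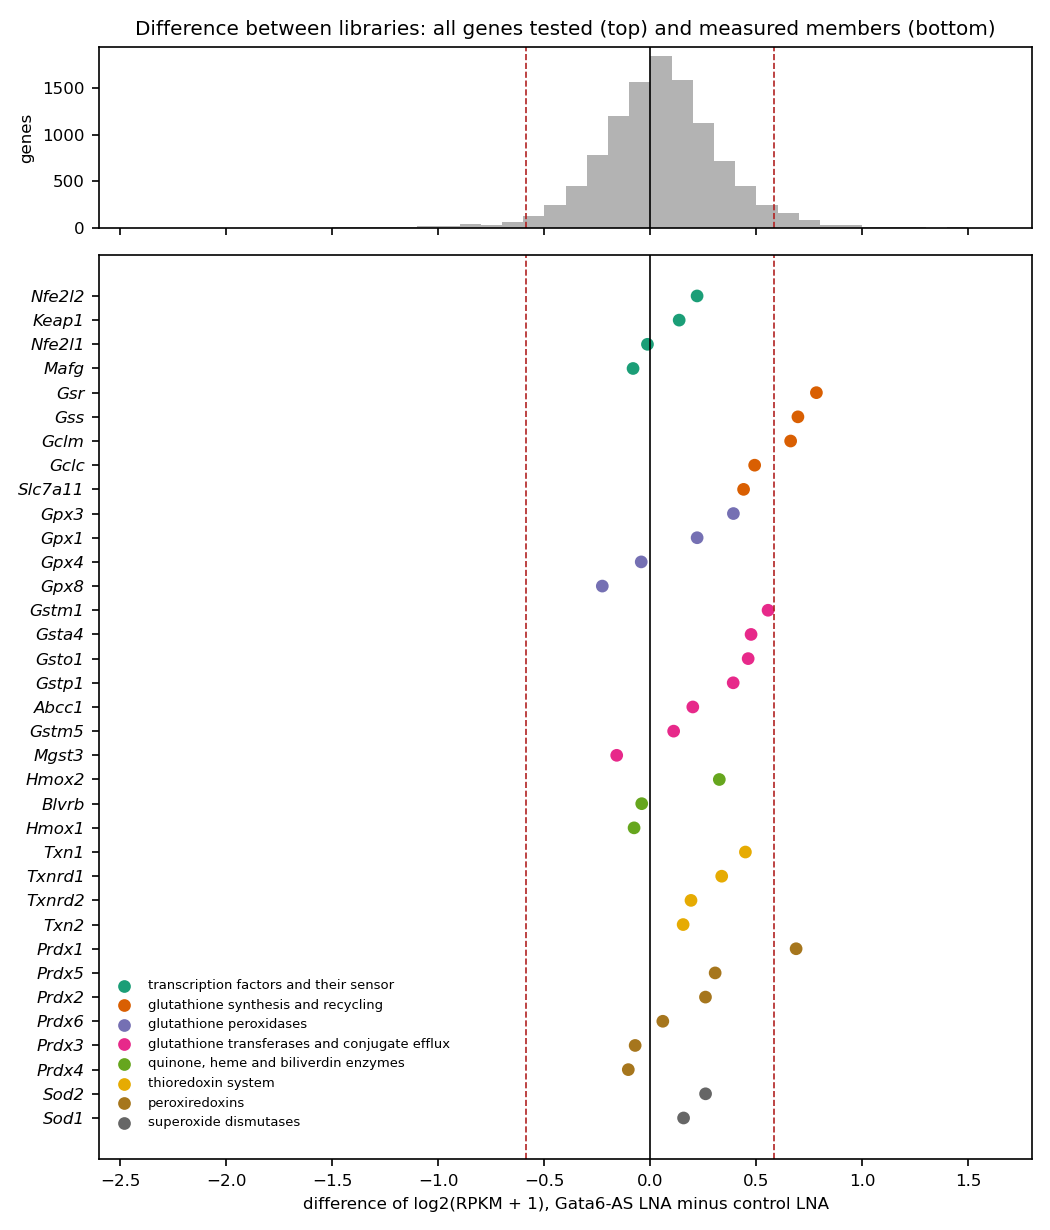
Difference of log2(RPKM + 1) between the libraries (x axis), Gata6-AS LNA minus control LNA, as a histogram of all 10853 genes measured (top, y axis in genes) and for each of the 35 measured members, coloured by role (bottom); dashed lines mark a 1.5-fold difference. Gsr, Gss, Gclm and Prdx1 lie beyond the right line and no member lies beyond the left one.

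Promoters of the members were searched for the sites that NRF2, AP-1 and ATF4 are known to bind, and 4 are shown, chosen after their matches and values were seen: Slc7a11, for its ATF4 sites; Gclm and Prdx1, 1.5-fold higher genes that hold an antioxidant core match; and Srxn1, a classical NRF2 target near 0 RPKM in both libraries that holds matches too. The window of Gss, also 1.5-fold higher, held none of the 3 motifs. Gsr, the remaining 1.5-fold higher gene, and Gclc had no window and could not be searched. Each window runs from 250 bases before to 50 bases after the gene's start and is taken from RefSeq, build GRCm38.p6, 5′ to 3′ on the gene's strand. Capitals mark matches, on either strand, to the antioxidant response element core TGACNNNGC, the AP-1 site TGAGTCA, which can overlap that core, and the ATF4 composite site TGATGCAA. The windows are chr3:50443564-50443863 (minus strand) for Slc7a11, chr3:122245307-122245606 (plus) for Gclm, chr4:116685349-116685648 (plus) for Prdx1 and chr2:152105274-152105573 (plus) for Srxn1.
Slc7a11: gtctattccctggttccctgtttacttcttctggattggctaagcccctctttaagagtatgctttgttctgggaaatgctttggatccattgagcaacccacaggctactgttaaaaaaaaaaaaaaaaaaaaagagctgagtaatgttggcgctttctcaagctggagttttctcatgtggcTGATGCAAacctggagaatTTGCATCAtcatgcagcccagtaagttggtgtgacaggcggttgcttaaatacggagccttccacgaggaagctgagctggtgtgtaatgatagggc
Gclm: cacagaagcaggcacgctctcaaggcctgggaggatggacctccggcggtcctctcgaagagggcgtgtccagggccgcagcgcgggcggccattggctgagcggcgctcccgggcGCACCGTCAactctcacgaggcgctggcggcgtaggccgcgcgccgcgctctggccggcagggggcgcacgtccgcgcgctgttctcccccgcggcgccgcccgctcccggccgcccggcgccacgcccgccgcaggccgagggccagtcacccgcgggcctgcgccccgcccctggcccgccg
Prdx1: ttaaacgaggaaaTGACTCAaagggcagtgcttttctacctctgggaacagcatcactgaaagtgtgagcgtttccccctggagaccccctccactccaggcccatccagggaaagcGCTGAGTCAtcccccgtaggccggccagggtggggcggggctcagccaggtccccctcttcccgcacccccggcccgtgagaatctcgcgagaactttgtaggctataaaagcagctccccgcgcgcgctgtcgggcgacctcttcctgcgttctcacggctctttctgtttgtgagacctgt
Srxn1: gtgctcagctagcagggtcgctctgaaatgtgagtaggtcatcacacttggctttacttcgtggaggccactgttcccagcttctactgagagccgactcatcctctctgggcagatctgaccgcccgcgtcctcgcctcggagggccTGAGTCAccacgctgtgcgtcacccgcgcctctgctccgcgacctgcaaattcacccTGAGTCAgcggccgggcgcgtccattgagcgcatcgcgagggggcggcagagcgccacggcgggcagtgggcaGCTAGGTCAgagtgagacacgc
The window of Slc7a11 held the ATF4 composite site on both strands, with leftmost bases 66 and 47 bases before the start, and no match to the antioxidant core. Gclm held 1 core match, 134 bases before the start. In Prdx1 the core match, 133 bases before the start, overlapped an AP-1 match, and a further AP-1 match lay upstream. Srxn1 held 2 AP-1 matches before the start and 1 core match after it.

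Over the set, 34 of 41 genes had a window in the RefSeq table. The antioxidant core was found in 10 of 34 genes (29.4%), against 14.0% of all 27025 genes with a window and 12.4% of all 32851 windows. Among the measured genes with a window it was found in 7 of 29 members (24.1%) and in 17.5% of all 7560 genes. The 10 were Nfe2l2, Mafg, Gclm, Ggct, Gstm5, Mgst1, Txnrd1, Srxn1, Prdx1 and Sod1, which include genes above and below their control level and genes near 0 RPKM. The AP-1 site was found in 4 of 34, Gstm5, Gstp1, Srxn1 and Prdx1, against 5.95% of all genes with a window, and in 3 of 29 measured members against 4.06% of measured genes. Slc7a11 was the single member with the ATF4 composite site, which 0.767% of measured genes hold. A match describes these letters in this window and is no evidence of binding.

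The regulators of the pathway differed little between the libraries. Nfe2l2, encoding NRF2, stood at 6.21 RPKM with the control LNA and 7.40 RPKM with the Gata6-AS LNA, 119% of control (113% to 126%). Keap1, its cysteine sensor, stood at 4.99 and 5.59 RPKM, 112% of control (104% to 121%), a difference of 0.14 that turned negative once GC content and length were corrected for. Nfe2l1, encoding the related factor NRF1, which drives proteasome genes and shares NRF2 binding sites, was the most abundant of the 4 at 37.4 and 37.1 RPKM, 99.0% of control (97.2% to 101%). Mafg, a small MAF partner, stood at 13.6 and 12.8 RPKM, 94.1% of control (89.2% to 99.2%). The 4 regulators thus lay between 94.1% and 119% of control. Keap1 shares 2910 bp with Gm16754 on the opposite strand (3.24 and 3.58 RPKM), and Mafg 124 bp with Sirt7 on its own strand (2.05 and 2.78 RPKM).

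Control genes outside the set were on both sides of 0. Of 15 further genes of NRF2 control, 12 were measured, with a median difference of -0.04, 6 above and 6 below 0. At least 1.5-fold higher was 1, beside 3.43% of all genes measured, and none was lower, beside 1.94%. That gene was Dpp3, a peptidase that binds KEAP1, at 24.1 RPKM with the control LNA and 37.6 RPKM with the Gata6-AS LNA (0.62). Cul3, the scaffold of the ligase that ubiquitinates NRF2, stood at 22.9 and 18.8 RPKM (-0.27), and Fbxw11, an adaptor of a second ligase for NRF2, at 24.2 and 18.2 RPKM (-0.39). Bach1, the repressor that competes with NRF2 for its sites, stood at 12.6 and 11.2 RPKM (-0.15), and the small MAF gene Mafk at 9.01 and 11.4 RPKM (0.31).

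Every measured gene of glutathione synthesis and recycling in the set had a higher level in the Gata6-AS LNA library, where 58.0% of all genes measured lay above 0. Gclm, the modifier subunit of glutamate-cysteine ligase, which lowers the amount of glutamate the enzyme needs, stood at 1.25 RPKM with the control LNA and 2.57 RPKM with the Gata6-AS LNA, 205% of control (187% to 224%, on no fewer than 667 and 1620 reads), a difference of 0.66. Gclc, the catalytic subunit of this rate-limiting enzyme, stood at 3.43 and 5.23 RPKM, 152% of control (142% to 164%, on no fewer than 1216 and 2201 reads), a difference of 0.49. The modifier was the less abundant subunit RNA in both libraries, at 0.366 of the catalytic subunit's RPKM in the control and 0.490 in the Gata6-AS LNA library.

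Gss, glutathione synthetase, which adds the glycine, stood at 1.37 and 2.84 RPKM, 207% of control (184% to 233%), a difference of 0.70. The span of Gss shares 22544 bp with Acss2 on the opposite strand, which stood at 2.14 and 2.86 RPKM (0.30). The sources used here do not say whether counting used strand, so reads of these 2 genes cannot be told apart where their exons coincide. Gsr, glutathione reductase, which restores oxidised glutathione with NADPH, had the largest difference of the set on this scale, 0.78, at 4.16 and 7.88 RPKM, 189% of control (177% to 203%, on no fewer than 1187 and 2669 reads). It lay at percentile 99.0 of the differences of all genes measured, with Gss at 98.3 and Gclm at 97.9. The order of these 3 genes depended on the scale: with a pseudocount of 0.1 RPKM Gclm (0.98) and, above it, Gss had larger differences than Gsr (0.91), and with GC content and length corrected for Gclm (0.77) lay above Gsr (0.68). Ggct, which breaks down gamma-glutamyl peptides, was below the minimum at 0.468 and 0.695 RPKM, 148% of control (125% to 176%). In the mm9 assembly Gclm lies at chr3:121948475-121972902 on the plus strand, Gclc at chr9:77602342-77642292 on the plus strand, Gss at chr2:155388917-155418546 on the minus strand and Gsr at chr8:34762995-34808635 on the plus strand. These genes are on 4 chromosomes, so the group does not share 1 locus.

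In the authors' deposited table, Gss had a log2 difference of 0.95 (p = 0.0106), Gclm of 0.93 (p = 0.0202) and Gsr of 0.83 (p = 0.0204). Gclc is not among the genes listed there. These p-values come from 1 library per group, and the sources used here do not describe the test.

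Slc7a11, the cystine importer that feeds cysteine into glutathione, stood at 5.26 RPKM with the control LNA and 7.49 RPKM with the Gata6-AS LNA, 142% of control (138% to 147%, on no fewer than 6125 and 10354 reads), a difference of 0.44. The authors' deposited table gives it a log2 difference of 0.49 (p = 0.0565). Its difference had the opposite sign to that of most genes that ATF4 is known to activate. Of 22 genes of an ATF4 and amino acid response list, 21 were measured, with a median difference of -1.06. Of these, 19 lay below 0 and 12 were at least 2-fold lower. Of all 10853 genes measured, 4555 lay below 0 and 0.451% were at least 2-fold lower. The list was drawn up with earlier results of these libraries known, so its direction is no independent evidence. Slc7a11 lay above 20 of these 21 genes. The most negative were Nupr1, a stress-induced chromatin protein, at 10.7 RPKM with the control LNA and 1.07 RPKM with the Gata6-AS LNA (-2.49), the neutral amino acid transporter Slc1a4 at 32.2 and 8.92 RPKM (-1.75), the large amino acid transporter Slc7a5 at 133 and 44.7 RPKM (-1.55), and Atf5 at 9.78 and 2.74 RPKM (-1.53). Atf4 RNA itself stood at 138 and 136 RPKM (-0.02).

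**Figure D2:**
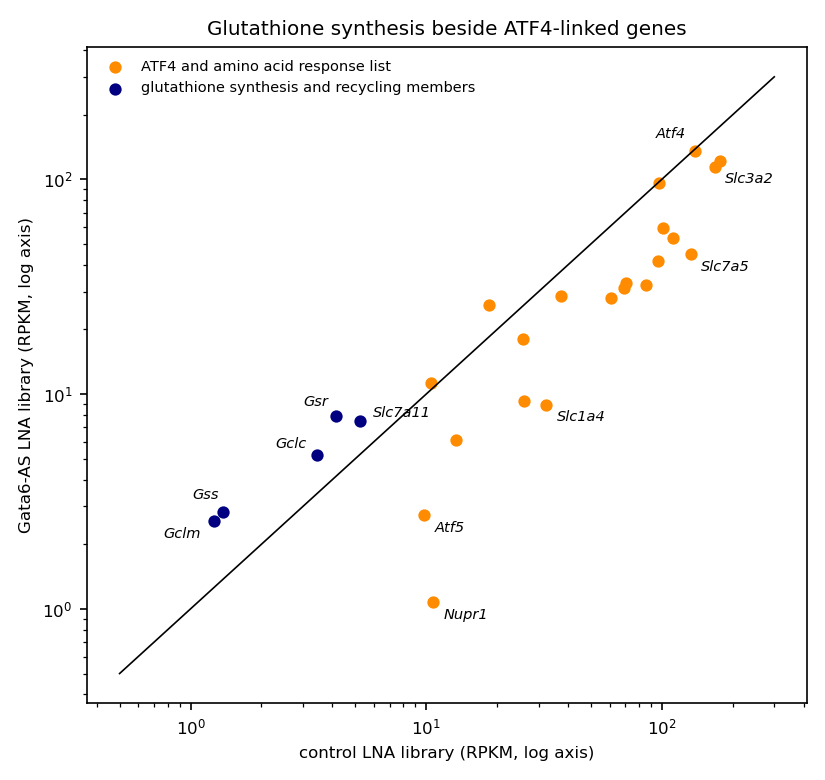
Level in the control LNA library (x axis) against the Gata6-AS LNA library (y axis), both in RPKM on log axes, for the 5 measured members of glutathione synthesis and recycling and the 21 measured genes of the ATF4 and amino acid response list; the line marks equal levels. The 5 glutathione genes, Slc7a11 among them, lie above the line, and 19 of the 21 ATF4-linked genes lie below it.

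Slc3a2, the heavy chain that Slc7a11 and Slc7a5 both need at the cell surface, stood at 167 and 115 RPKM, 68.5% of control (67.3% to 69.8%), a difference of -0.54. Slc7a11 and its heavy chain therefore differed in opposite directions, and the RPKM of Slc7a11 was 0.0314 of that of Slc3a2 in the control and 0.0653 in the Gata6-AS LNA library. The transsulfuration pathway, which makes cysteine from methionine inside the cell, has 2 enzymes in this list. Cbs, the first, stood at 0.716 and 1.65 RPKM (0.63) and was measured only through its level with the Gata6-AS LNA, and Cth, the second, stood at 3.14 and 1.47 RPKM (-0.75). Chac1, an ATF4 target that degrades glutathione, stood at 25.8 and 18.0 RPKM (-0.49). Hagh, which returns glutathione from its methylglyoxal adduct, stood at 7.45 and 11.5 RPKM (0.56). Over the 18 measured of 20 further genes of glutathione supply and turnover, the median was 0.19, with 12 above and 6 below 0. At least 1.5-fold higher was 1 (Cbs, measured only through its Gata6-AS LNA level), beside 3.43% of all genes measured. At least 1.5-fold lower was 1 (Cth), beside 1.94% of all. Slc3a2 and Chac1 stand both here and in the ATF4 list.

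The glutathione peroxidases, which use glutathione to reduce peroxides, showed no common direction. Gpx4, the peroxidase that reduces lipid peroxides in membranes and protects from ferroptosis, was the most abundant at 109 RPKM with the control LNA and 106 RPKM with the Gata6-AS LNA, 97.0% of control (95.2% to 98.9%). Gpx1, the general cytosolic peroxidase, stood at 85.0 and 99.2 RPKM, 117% of control (113% to 120%). Gpx8, a peroxidase of the endoplasmic reticulum, stood at 21.1 and 17.9 RPKM, 84.8% of control (79.9% to 89.9%), the most negative difference of the 35 members on this scale at -0.23; with GC content and length corrected for, Mgst3 (-0.26) lay below it. Gpx3, the secreted plasma peroxidase, stood at 0.788 and 1.35 RPKM and was measured only because of its level in the Gata6-AS LNA library; it had the fewest reads of the measured members, at least 148 and 300, and stood at 171% of control (140% to 209%). Gpx7, the relative of Gpx8, gave at least 1 read in the control and 0 in the Gata6-AS LNA library, under the limit of 3 reads that a count of 0 allows (0.0189 RPKM there), so it has no fold. Gpx1, Gpx3 and Gpx4 are selenoproteins, and of 8 genes of selenoprotein synthesis, all measured, 5 lay above and 3 below 0 with none past 1.5-fold. The furthest from 0 were Pstk at 0.34, Secisbp2l and Sepsecs, both at -0.32, and Eefsec at 0.23.

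Cytosolic glutathione transferases, which attach glutathione to electrophiles, had a median difference of 0.39 with Abcc1 and the membrane-bound members included. Of these, 6 of the 7 measured lay above 0, beside 58.0% of all genes measured. Gstm1, a mu-class transferase, stood at 9.52 RPKM with the control LNA and 14.5 RPKM with the Gata6-AS LNA, 152% of control (142% to 162%). Gsta4, the alpha-class enzyme for the lipid peroxidation product hydroxynonenal, stood at 50.0 and 69.8 RPKM, 140% of control (135% to 145%). Gsto1, an omega-class enzyme with a catalytic cysteine, stood at 22.7 and 31.6 RPKM, 139% of control (132% to 147%), and the authors' deposited table lists it with a log2 difference of 0.45 (p = 0.0472). Gstp1, the pi-class enzyme, was the most abundant transferase at 107 and 141 RPKM, 131% of control (128% to 135%). These transferases were within 1.5-fold of control on the log2(RPKM + 1) scale, each on the same side.

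The remaining conjugation genes were closer to control or below it. Gstm5, 113568 bp from Gstm1 on chromosome 3, stood at 7.28 and 7.93 RPKM, 109% of control (100.1% to 119%). Mgst3, a microsomal transferase, stood at 11.8 and 10.5 RPKM, 88.7% of control (82.2% to 95.6%), and Mgst1, its relative, gave at least 1 read in the control and 0 in the Gata6-AS LNA library. Abcc1, which exports glutathione conjugates, stood at 7.83 and 9.15 RPKM, 117% of control (114% to 120%). Gstp2, a near-identical copy 2369 bp from Gstp1, stood at 72.0 and 96.1 RPKM (0.41), and the sources used here do not say how reads shared by such copies were divided, so the values of the pi and mu classes are uncertain. Of 21 further transferases and peroxidases, 8 were measured, 5 above and 3 below 0 and none past 1.5-fold. Gstt3 at 1.96 and 3.27 RPKM (0.53) and Gstm3 at 0.929 and 1.58 RPKM (0.42) had the most positive differences, and Gstcd at 6.05 and 4.82 RPKM (-0.27) the most negative. Gstm3 was measured only through its level in the Gata6-AS LNA library.

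**Figure D3:**
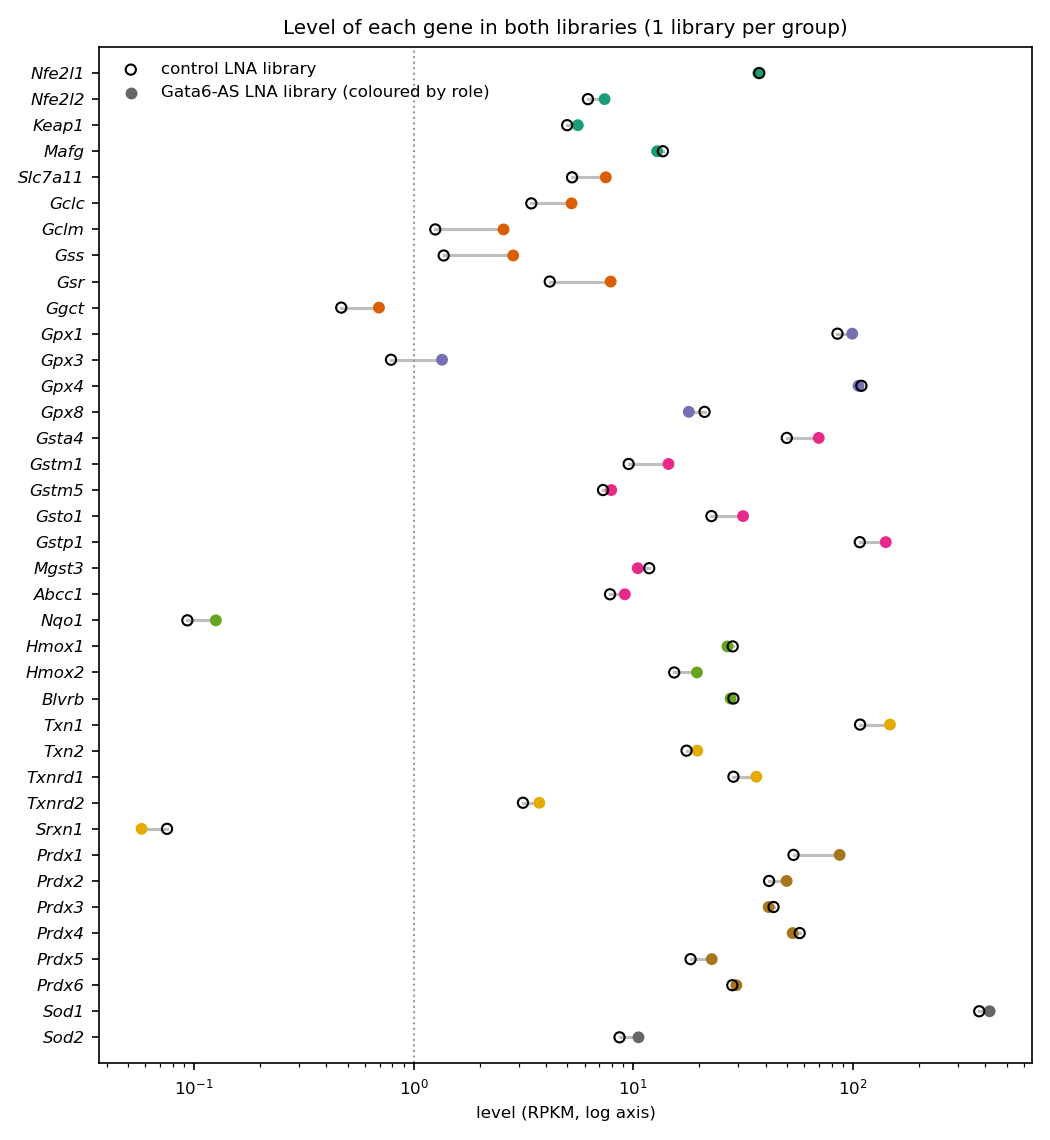
Level of each member in RPKM (x axis, log scale) in the control LNA library (open circles) and the Gata6-AS LNA library (filled circles, coloured by role), 1 library per group; Gpx7, Mgst1 and Sod3, at 0 in the Gata6-AS LNA library, are left out, and the dotted line marks 1 RPKM. Sod1 is the most abundant, Nqo1 and Srxn1 lie near 0.1 RPKM, and the lines between circles are longest for Gclm, Gss and Gsr above 1 RPKM.

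Several classical NRF2 targets were low or did not differ by much. Nqo1, the quinone reductase widely used as a readout of NRF2, stood at 0.0933 RPKM with the control LNA and 0.126 RPKM with the Gata6-AS LNA, on no fewer than 15 and 24 reads. At 135% of control its interval ran from 67.9% to 276%, so a difference was not detectable at this depth. Srxn1, sulfiredoxin, which repairs overoxidised peroxiredoxins, stood at 0.0753 and 0.0577 RPKM, on no fewer than 11 and 10 reads, and its interval of 29.2% to 199% of control likewise held equal levels. Hmox1, the inducible heme oxygenase that both NRF2 and BACH1 control, stood at 28.3 and 26.8 RPKM, 94.6% of control (91.5% to 97.9%). Hmox2, the constitutive heme oxygenase, stood at 15.3 and 19.5 RPKM, 127% of control (118% to 137%). Its span shares 16395 bp with 5730403B10Rik on the opposite strand, which stood at 20.0 and 18.1 RPKM. Blvrb, a flavin and biliverdin reductase, stood at 28.5 and 27.7 RPKM, 97.1% of control (93.2% to 101%).

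Ferritin, which stores the iron that heme breakdown releases, was unequal between its chains. Fth1, the heavy chain with ferroxidase activity, stood at 354 RPKM with the control LNA and 577 RPKM with the Gata6-AS LNA, 163% of control (160% to 166%), while Ftl1, the light chain, stood at 1314 and 1370 RPKM, 104% of control (103.5% to 104.9%). Both ferritin genes have processed copies elsewhere in the genome, so reads shared with those copies make their values uncertain. Of the 7 measured of 9 heme and ferritin genes, Fth1 (0.70) was the single one past 1.5-fold, 5 lay above 0, and Blvra (0.35), Tfrc (0.29) and Aco1 (-0.18) came next in size. Other detoxification genes known as NRF2 targets had a median of 0.25 over 13 measured of 20, with 11 above 0, beside 58.0% of all genes measured. At least 1.5-fold higher was 1, the aldose reductase gene Akr1b3 at 14.1 and 22.2 RPKM (0.62), beside 3.43% of all. Cbr1, a carbonyl reductase, stood at 16.7 and 23.5 RPKM (0.47), Pir at 1.27 and 1.77 RPKM (0.29), and the epoxide hydrolase gene Ephx1 at 2.56 and 3.33 RPKM (0.28). The median of these detoxification genes was 0.05 among those above a mean of 5 RPKM and 0.09 with no minimum.

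The thioredoxin system was higher in all of its 4 measured members, none by 1.5-fold, where 58.0% of all genes measured lay above 0. Txn1, cytosolic thioredoxin, stood at 108 RPKM with the control LNA and 147 RPKM with the Gata6-AS LNA, 137% of control (134% to 140.0%), and the authors' deposited table gives a log2 difference of 0.48 (p = 0.0716). Txnrd1, the cytosolic selenoenzyme that reduces it, stood at 28.5 and 36.3 RPKM, 127% of control (124% to 130.2%). Their mitochondrial counterparts had smaller differences: Txn2 stood at 17.5 and 19.5 RPKM, 112% of control (107% to 117%), and Txnrd2 at 3.14 and 3.73 RPKM, 119% of control (110% to 128%). The counting intervals of Txn1 and Txn2 did not overlap, while those of Txnrd1 and Txnrd2 did. Their width follows read number, with no fewer than 11721 control reads for Txn1 and 1087 for Txnrd2. Whether the cytosolic and mitochondrial genes differ was not tested.

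Among the 6 peroxiredoxins, Prdx1 had the largest difference. Prdx1, a cytosolic enzyme that thioredoxin recharges, stood at 53.6 RPKM with the control LNA and 86.9 RPKM with the Gata6-AS LNA, 162% of control (159% to 165%, on no fewer than 16887 and 32512 reads), a difference of 0.69 at percentile 98.2 of all genes measured. The authors' deposited table gives it a log2 difference of 0.75 (p = 0.0140). In mm9 it lies at chr4:116358149-116373427 on the plus strand. Prdx5, found in mitochondria and peroxisomes, stood at 18.2 and 22.7 RPKM, 125% of control (120.0% to 130.0%), and Prdx2, the other abundant cytosolic enzyme, at 41.5 and 49.9 RPKM, 120% of control (116% to 124%). Both lie against a gene on the opposite strand that was higher as well: Trmt112, which shares 409 bp with Prdx5, stood at 31.0 and 41.4 RPKM, and Rnaseh2a, which shares 181 bp with Prdx2, at 14.8 and 16.9 RPKM. Prdx6, which uses glutathione in place of thioredoxin, stood at 28.2 and 29.4 RPKM, 104% of control (102% to 107%). The mitochondrial Prdx3 stood at 43.5 and 41.3 RPKM, 95.0% of control (91.9% to 98.2%), and Prdx4 of the endoplasmic reticulum at 57.2 and 53.1 RPKM, 92.9% of control (90.7% to 95.2%).

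Superoxide dismutases turn superoxide into the peroxide that the enzymes above remove. Sod1, the cytosolic copper-zinc enzyme, had the highest level of the set, 375 RPKM with the control LNA and 419 RPKM with the Gata6-AS LNA, 111% of control (110% to 113%). Sod2, the mitochondrial manganese enzyme, stood at 8.65 and 10.6 RPKM, 122% of control (117% to 128%). Sod3, the secreted enzyme, was listed at 0 in both libraries. Catalase, Cat, stood at 31.9 and 32.7 RPKM (0.03). Over 13 measured of 14 further thioredoxin and peroxide genes, the median difference was -0.01 with 6 above and 7 below 0 and none past 1.5-fold, the furthest being Nxn (0.41), Msrb3 (0.37), Sesn2 (-0.36) and Sesn3 (-0.33).

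Genes that supply NADPH, the reductant that glutathione and thioredoxin reductases both use, had a median difference of 0.28. That median was 0.18 with GC content and length corrected for and 0.38 above a mean of 5 RPKM. Of 12 measured, 10 lay above 0, beside 58.0% of all genes measured. At least 1.5-fold higher were 3, beside 3.43% of all, and 1 was at least 1.5-fold lower, beside 1.94%. G6pdx, the first and rate-limiting enzyme of the pentose phosphate pathway, stood at 5.60 RPKM with the control LNA and 9.02 RPKM with the Gata6-AS LNA, 161% of control (142% to 184%). Idh1, cytosolic isocitrate dehydrogenase, stood at 12.2 and 18.9 RPKM, 156% of control (149% to 163%). Of the folate enzymes in this list, the cytosolic Mthfd1 stood at 12.2 and 28.5 RPKM (1.16) and the mitochondrial Aldh1l2 at 1.71 and 0.443 RPKM (-0.91), the latter measured only through its control level. G6pdx overlaps Ikbkg on the opposite strand, so its reads share the limit given for Gss.

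**Figure D4:**
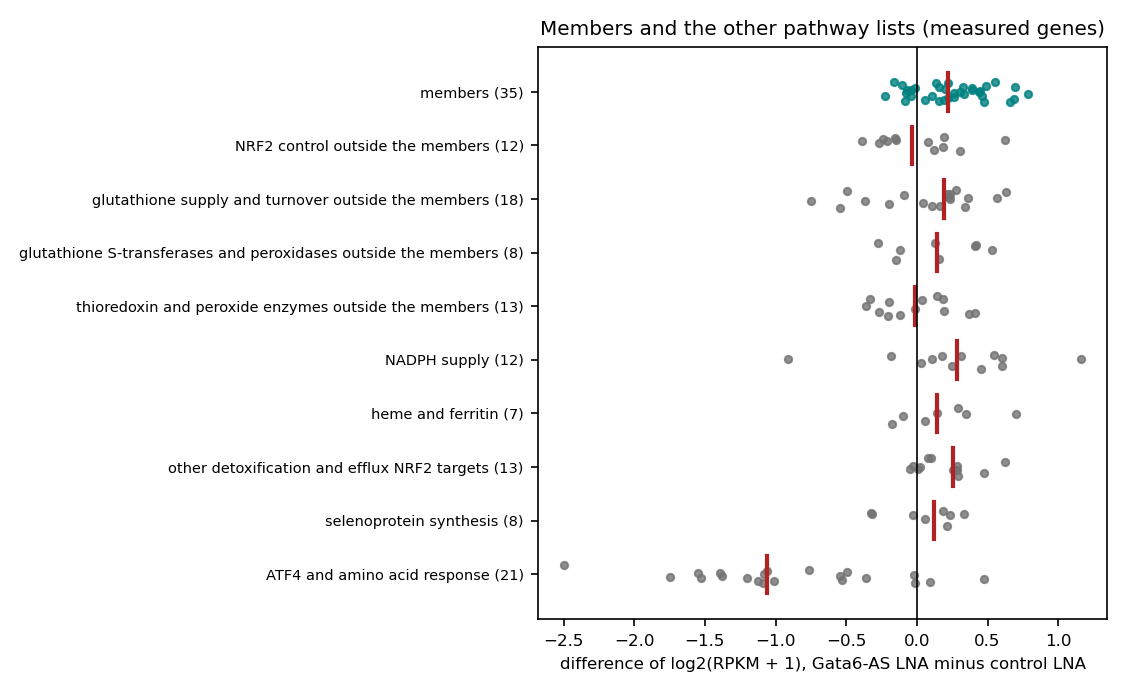
Difference of log2(RPKM + 1), Gata6-AS LNA minus control LNA (x axis), of each measured member and of each measured gene in the other pathway lists (1 row per list, number of genes in brackets); red bars are medians, and points are spread vertically for legibility. The members (median 0.22) and the NADPH genes (0.28) lie mostly right of 0, and the ATF4 list (median -1.06) lies mostly left of it.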

How the data were processed

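The libraries were made from TRIzol-extracted, column-purified total RNA with an Illumina kit, per the labels' protocols. The authors' deposited expression table gives RPKM per gene, per the file headers; the submitters' processing notes name TopHat and mm9, and no source used here gives the counting tool, the annotation or the use of strand. A second deposited table, per the file headers, holds 2099 genes with a p-value, a log2 value per library and the difference of both; it was joined by position and its values are quoted as the authors' own.

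Differences were computed as log2(RPKM + 1), Gata6-AS LNA minus control LNA, for genes averaging 1 RPKM or more, 1 row per symbol (the highest mean for 59 symbols on several rows), without 10 small RNA features. Calls are size rules of 2-fold and 1.5-fold; with 1 library per group no test was made. Library depth was found from genes spanning under 3000 bp at which RPKM times span came in whole steps of 1 size (474 in the control and 499 in the Gata6-AS LNA library). The reads behind a gene are the smallest whole numbers giving both RPKM values at 1 length up to 30000 bp, within a relative 3e-07 plus 0.0002 reads; this procedure was tested on simulated data. The floor is 3 reads. Alternatives were other pseudocounts, centring, scaling, quantile normalization, other minimums, leaving out members with an expressed opposite-strand neighbour, and the authors' own log2 differences; a GC content and length correction (10 by 5 bins, GENCODE M21 transcripts) and the ratio of recovered reads were chosen after seeing the data.

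The members and lists were chosen with earlier results of these data known. Named were all members, the 4 genes furthest from 0 in each other pathway list, Atf4, Cul3, Bach1, Cat, G6pdx, Fth1, Slc3a2, Gata6-AS, and examples of the cell type markers; Chac1, Gstp2, Ftl1 and the overlapping genes were named after their values were seen. Python 3.11.15, numpy 2.4.6, pandas 2.3.3, scipy 1.17.1 and matplotlib 3.10.9 were used.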

Additional observations from a re-analysis of the deposited data

How the results depend on the processing

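The 4 members at least 1.5-fold higher, Gclm, Gss, Gsr and Prdx1, were the same 4 with a pseudocount of 0.5 RPKM, centring on the median of all genes, scaling to equal summed RPKM, quantile normalization, no minimum, and the GC content and length correction chosen after seeing the data; the count was 7 with a pseudocount of 0.1 RPKM and 2 above a mean of 5 RPKM. Without the 6 measured members that overlap an expressed opposite-strand gene it was 3, since Gss left. No member was 1.5-fold lower or 2-fold different under any of these settings, but by the ratio of recovered reads Gss (log2 1.05) and Gclm (log2 1.03) passed 2-fold. The median difference of the measured members, 0.22 as reported, was 0.25 with a pseudocount of 0.1 RPKM, 0.24 with 0.5 RPKM, 0.17 with the median of all genes set to 0, 0.20 with each library scaled to the same summed RPKM, 0.20 with quantile normalization, 0.20 with no minimum, 0.21 above a mean of 5 RPKM and 0.16 with GC content and length corrected for. Of the 35 members, 1 changed sign under any setting, Keap1 after that correction. Among the other lists, the median of further transferases and peroxidases, 0.14 on the scale of the report, was 0.02 above a mean of 5 RPKM, 0.05 with no minimum and 0.04 with GC content and length corrected for, and that of heme and ferritin genes, also 0.14, was 0.06, 0.14 and 0.05. No paired analysis was possible because each group has 1 library. Depth limits Nqo1, Srxn1, Gpx7, Mgst1 and Sod3, and the spread between cultures is unknown for every gene.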
